A study of Drosophila melanogaster with 14 samples.

Results

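The tetraspanin genes of Drosophila melanogaster were examined in 3 DamID tracks of the adult midgut. They were chosen by name, as the Release 6 genes whose symbol is Tsp followed by a digit, and Tsp2A was kept out as a comparison. The rule gave 33 genes of 17802 with at least 1 GATC fragment. It used no measured value, but it was chosen with earlier results of these data known.

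Tetraspanins are small proteins that span the membrane several times and gather other proteins, among them integrins, receptors and proteases, into shared membrane domains. In flies many of their genes stand side by side in one tandem cluster. The subfamily called TspanC8 helps the protease Kuzbanian, the fly ADAM10, to mature and reach the cell surface, where Kuzbanian cuts the Notch receptor, and Notch signaling decides the fate of the daughters of midgut stem cells. Tsp2A itself, the tetraspanin left out by the rule, is a component of the smooth septate junction that seals the gut epithelium.

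Targeted DamID expresses a low level of the Dam methylase, alone or fused to a protein of interest, in the cells of one driver, and reads its mark at GATC sites in DNA from whole dissected midguts. There were 3 experiments with 14 samples in all. Dam fused to RNA polymerase II (Pol II) was expressed in intestinal stem cells and enteroblasts (ISC/EBs) under the esg driver (2 samples, with 2 of Dam alone) and in enterocytes (ECs) under the Myo1A driver (2 samples, with 2 of Dam alone). Dam-Sox21a, a fusion with a Sox-family transcription factor, was expressed in ISC/EBs under esg (3 samples, with 3 of Dam alone). The esg driver covers stem cells and enteroblasts together, so the tracks cannot tell these apart. The controls carry the same driver and Dam without a partner, and the labels give adult stage but no age or sex.

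Each experiment is held as 1 track averaged over its samples, in log2 of the fusion over Dam for each GATC fragment. The occupancy of a gene is the mean of its fragment values, each fragment counted by the bases it has inside the gene, so 0 means the same methylation as Dam alone and 1 means 2 times as much. A value of at least 1, or a difference of at least 1 between populations, is used below as a mark of size. The averaged tracks hold no value per sample. No spread between samples, interval or p-value could be computed, the depth is unknown, and every comparison below is without a replicate check.

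The tracks cover 383654 fragments with a median length of 197 bp. Fragment values had an SD of 0.856 in the ISC/EB track, 0.652 in the EC track and 0.656 in the Sox21a track, and neighboring fragments were correlated (Pearson's r from 0.874 to 0.914, across fragments). All ISC/EB markers were at least 1 higher in their own population than in the other, and only some of the EC markers were. The 4 ISC/EB markers esg, Sox21a, Dl and mira all had an occupancy at least 1 higher in ISC/EBs, with esg at 3.63 in ISC/EBs and -0.10 in ECs. Of 5 EC markers, the protease genes kappaTry, betaTry and Jon99Ci were at least 1 higher in ECs, whereas Myo31DF (1.47 in ISC/EBs and 1.30 in ECs) and nub (0.24 and 0.63) were not. Of 13 markers of enteroendocrine cells, visceral muscle, hemocytes and trachea, only the hemocyte gene srp reached 1 in either population, at 1.01 in ISC/EBs and 0.80 in ECs.

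The genes with a Pol II mean of at least 1 were 8 of the 17 in the Tsp42E cluster, the neighbors Tsp29Fa and Tsp29Fb, and 2 of the 3 TspanC8 genes, and in ISC/EBs their share of the family was near that of genes at large. In ISC/EBs, 10 of the 33 genes had a mean of at least 1, against 29.4% of all genes, and in ECs 9 did, against 18.9%. In both populations 7 genes reached 1, which were Tsp29Fa, Tsp29Fb, Tsp3A and, from the Tsp42E cluster, Tsp42Ed, Tsp42Ef, Tsp42Eq and Tsp42Er. The share of all genes at 1 or above in both was 15.1%. A further 3 genes reached 1 only in ISC/EBs (Tsp42Ee, Tsp42Ek and Tsp42El), 2 only in ECs (Tsp86D and Tsp42Eg), and 21 in neither, against 66.9% of all genes. The 21 include Tsp42Eb, all of whose fragments were at exactly 0 in every track, and whether those zeros are measurements was not tested. The genes nearest to the mark were Tsp42Ek at 1.10 and Tsp42Eg at 0.92 in ISC/EBs, and Tsp86D at 1.11 and Tsp26A at 0.71 in ECs. The median occupancy of the 33 genes was 0.29 in ISC/EBs and 0.03 in ECs, where all genes had medians of 0.30 and 0.01.

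Large differences between the populations were about as frequent among the 33 genes of the rule as among all genes. Occupancy was at least 1 higher in ISC/EBs at 3 genes, where 9.89% of all genes were, and at least 1 higher in ECs at 1 gene, where 2.66% were. The 2 tetraspanin genes outside the rule, lbm and Tsp2A, also differed by at least 1, at 1.39 and -1.12 (ISC/EB minus EC). Among the 33, Tsp42El had the largest excess in ISC/EBs and Tsp29Fb the largest in ECs. By any amount, 20 genes were higher in ISC/EBs (65.3% of all genes) and 12 in ECs (32.8% of all genes), while Tsp42Eb was at 0 in both. The median difference, ISC/EB minus EC, was 0.06 for the tetraspanin genes, 0.15 for all genes and 0.21 for the 12589 genes with as many fragments as the tetraspanin genes, which had 4 to 60. This split depended on how the tracks were scaled. After quantile normalization of the Pol II tracks, 16 genes were higher in ISC/EBs and 17 in ECs, and with the median over all genes subtracted from each track, 11 and 22. Quantile normalization moved the median difference of all genes from 0.15 to -0.0046, and the subtraction moved it to -0.15. The share of all genes in each direction was not computed under these scalings, so these counts cannot be set against genes at large. The directions of the 4 genes that differed by at least 1 were kept under each scaling that was tried.

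**Figure D1:**
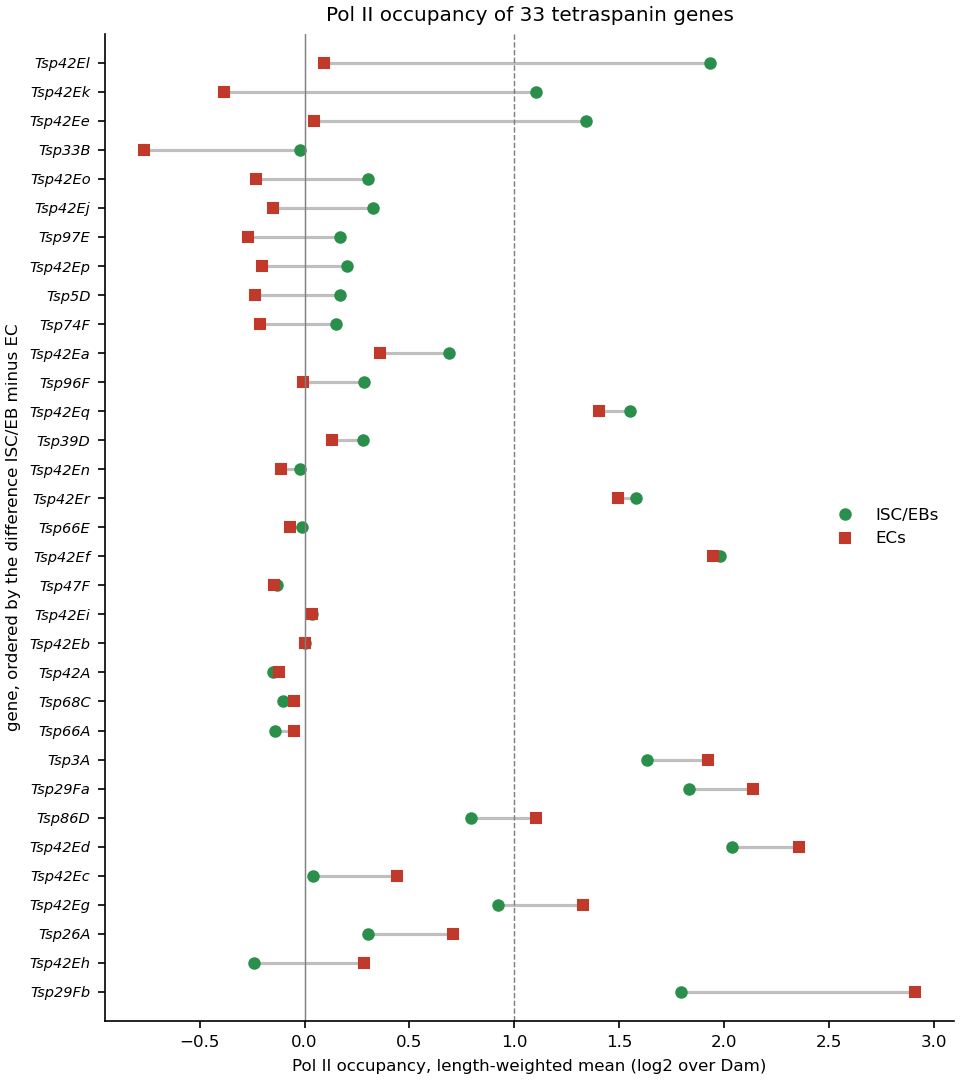
Pol II occupancy of the 33 tetraspanin genes, as length-weighted means in log2 over Dam (horizontal axis), in ISC/EBs (green circles) and ECs (red squares), 1 averaged track per population and no error bars. Genes are ordered by the difference ISC/EB minus EC, from Tsp42El (1.84) to Tsp29Fb (-1.12), and the dashed line marks an occupancy of 1.

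**Figure D2:**
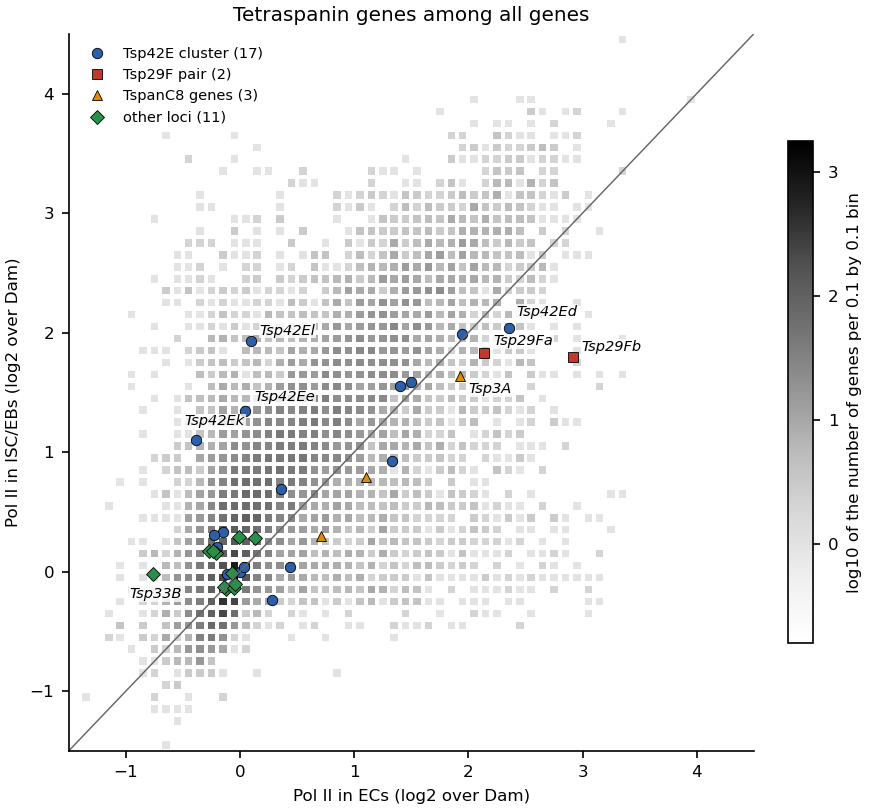
Pol II occupancy in ECs (horizontal axis) against ISC/EBs (vertical axis), both in log2 over Dam, for all 17802 genes as grey bins shaded on a log10 scale of the number of genes, with the 33 tetraspanin genes drawn over them. Tsp42Ee, Tsp42Ek and Tsp42El lie well above the line of equal values, Tsp29Fb lies well below it, and the 11 genes at other loci gather near 0 in both populations.

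The Tsp42E cluster holds 17 of the 33 genes on chromosome 2R from 6992676 to 7066113, a span of 73.4 kb. In the gene table it also holds lbm (late bloomer), a tetraspanin gene known for its part in forming neuromuscular synapses, and a few genes of other families. Of the 17 members, 7 had an ISC/EB occupancy of at least 1 (29.4% of all genes) and 5 an EC occupancy of at least 1 (18.9%). Neighbors in the cluster share fragments at their borders, and because adjoining fragments resemble each other, the members are not independent measurements. Occupancy nonetheless changed sharply from gene to gene. Genes at 1 or above in both populations (Tsp42Ed, Tsp42Ef, and Tsp42Eq with Tsp42Er) and Tsp42Eg, which reached 1 in ECs, alternated with genes occupied in ISC/EBs and with EC means near or below 0 (Tsp42Ee, and Tsp42Ek with Tsp42El) and with genes near 0 in both.

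**Figure D3:**
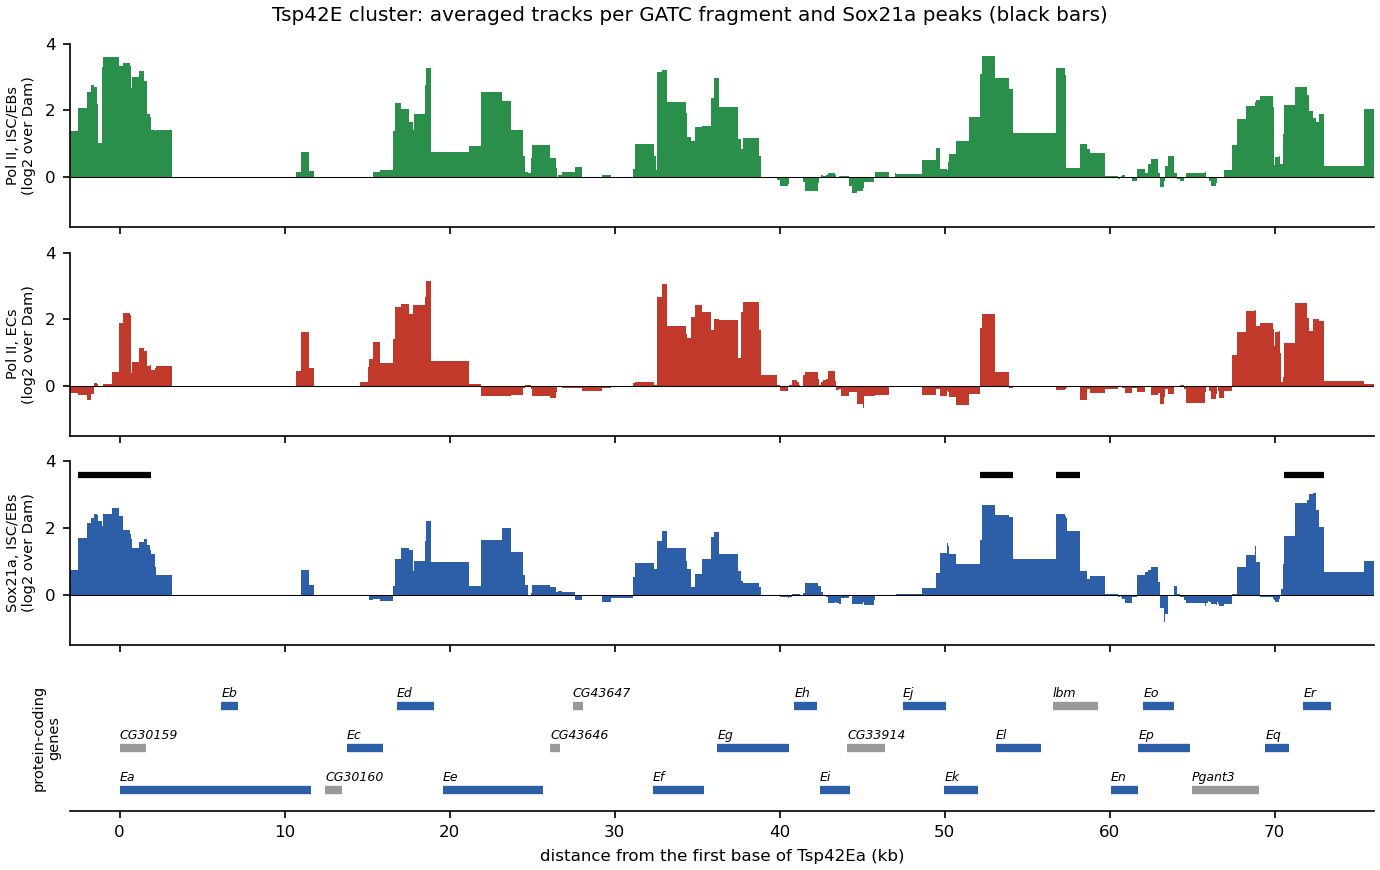
The Tsp42E cluster in distance from the first base of Tsp42Ea (kb, horizontal axis). The upper panels give the averaged value of each GATC fragment in log2 over Dam for Pol II in ISC/EBs (green), Pol II in ECs (red) and Sox21a in ISC/EBs (blue), black bars are the 4 Sox21a peaks, and the lowest panel places the members (blue) and the other protein-coding genes (grey). Tsp42Ed, Tsp42Ef and Tsp42Er stand out in all 3 tracks, whereas Tsp42Ee, Tsp42Ek, Tsp42El and lbm have higher means in both ISC/EB tracks than in ECs, where the track is at 0.75 over the first fragment of Tsp42Ee and at 2.15 between Tsp42Ek and Tsp42El.

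In 3 places, Tsp42Ee, Tsp42Ek and Tsp42El, the cluster had Pol II in ISC/EBs without a matching EC signal. Tsp42El (2R, 7045769 to 7048538) had the largest difference of the family, 1.84, from a mean of 1.93 in ISC/EBs against 0.09 in ECs. All of its length was at 1 or above in ISC/EBs and none in ECs. It has only 4 fragments, with 2.98 in the first, at the end with lower coordinates, and 1.33 in the last, which it shares with lbm. Without the shared fragment, the difference at Tsp42El was 2.60.

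Tsp42Ek, which ends 1058 bp from Tsp42El, averaged 1.10 in ISC/EBs against -0.39 in ECs. Only 3.22% of all genes had a lower EC value. Along its 7 fragments the ISC/EB value was higher toward Tsp42El, with a mean of 0.70 below the midpoint of the gene and 1.501 above it, while the EC mean was -0.38 and -0.39. The fragments between Tsp42Ek and Tsp42El carried the highest ISC/EB value of this stretch, 3.62, and there the EC track was high as well, at 2.15. Inside Tsp42El the first fragment was at 0.41 in ECs. The neighbor on the other side of this stretch, lbm, had 1.24 in ISC/EBs and -0.16 in ECs, so that 3 adjoining tetraspanin genes shared the pattern.

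Tsp42Ee lies on 2R from 7012254 to 7018362 and averaged 1.34 in ISC/EBs against 0.04 in ECs, a difference of 1.30. Its neighbor Tsp42Ed, only 514 bp away, was as high in ECs as in ISC/EBs, and the long fragment that both genes touch had 0.76 in ISC/EBs and 0.75 in ECs. Deeper in Tsp42Ee the populations parted. A fragment of 1242 bp had 2.56 in ISC/EBs against -0.30 in ECs, and the next had 2.27 and -0.32. With the shared fragment left out, the difference of Tsp42Ee was 1.76. It was less than 1 as an unweighted mean over fragments (0.92), as a median over fragments (0.71) and after quantile normalization (0.93), and that of Tsp42Ek was less than 1 as a median (0.80). The next largest difference toward ISC/EBs, 0.74 at Tsp33B outside the cluster, came from a negative EC value.

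The members at 1 or above in both populations included the most heavily methylated of the cluster. Tsp42Ed had the highest ISC/EB occupancy of all 33 genes, 2.04, and 2.36 in ECs, which put it above 90.2% and 97.9% of all genes, and 91.7% of its length was at 1 or above in each population. Tsp42Ef had 1.98 and 1.95, and the same fragment was its highest in both tracks, at 3.22 and 3.07. Tsp42Eg, the next gene, was occupied over its lower-coordinate part only. Its mean went from 1.72 to 0.13 in ISC/EBs and from 2.04 to 0.62 in ECs across the midpoint, which gave 0.92 and 1.33 for the whole gene. At the far end of the cluster the means were close. Tsp42Eq had 1.55 in ISC/EBs against 1.40 in ECs, and Tsp42Er had 1.58 and 1.497. The differences, 0.15 and 0.09, turned to -0.44 and -0.49 after quantile normalization, to -0.26 and -0.34 at a common SD, to -0.15 and -0.21 with the median over all genes subtracted, and to -0.50 and -0.13 as a median over fragments. That of Tsp42Eq was -0.45 over fragments wholly inside the gene. That of Tsp42Ef (0.04) also turned negative under the same 3 scalings (-0.26 to -0.59) and as a median (-0.52). Within Tsp42Eq the populations parted, since a fragment of 268 bp had 0.61 in ISC/EBs against 1.62 in ECs, and one of 48 bp further on had 1.30 and 0.25. The length at 1 or above was 60.1% in ISC/EBs and 81.2% in ECs.

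The remaining members of the cluster were low. Tsp42Ec had 0.04 in ISC/EBs and 0.44 in ECs, where a single fragment of 409 bp reached 1.30. Tsp42Eh had -0.24 and 0.28, the second largest difference of the family toward ECs (-0.52), although no fragment of it exceeded 0.42 in either track. Tsp42Ej, also called sunglasses, is known for the lysosomal breakdown of rhodopsin in photoreceptors, and it had 0.33 in ISC/EBs and -0.15 in ECs. Tsp42Eo lies within Tsp42Ep and shares all 12 of its fragments with it, so their differences of 0.53 and 0.41 are largely the same measurement. Tsp42Ei and Tsp42En lay between -0.11 and 0.04 in both Pol II tracks.

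At the start of the cluster the gene means hide a gap in the tracks. Tsp42Ea, with 60 fragments over 11584 bp, had 0.69 in ISC/EBs and 0.36 in ECs. Of these fragments, 43 in one run, 65.1% of the gene's length, were at exactly 0 in all 3 tracks, as were 9.19% of fragments in the genome. The run includes Tsp42Eb, all of whose 6 fragments were at 0, and the pseudogene CR42785. Within the run the fragment lengths repeated in order, with 84, 25, 90, 444 and 213 bp from fragment 14 and again from fragment 46. Whether these zeros are measurements was not tested. Without them, a setting chosen after the data were seen, Tsp42Ea had 1.97 in ISC/EBs and 1.03 in ECs. Its first 8 fragments are shared with CG30159 (3.19 and 1.42), whose body lies over the lower end of Tsp42Ea. Tsp42Ea's difference was 0.33 over all fragments and 0.12 over the fragments that touch no other gene. Most of the latter are zeros of this run, so these values do not isolate the part of CG30159. Zeros in all 3 tracks also made up 35.8% of the length of Tsp42Ec and 49.0% of Tsp39D.

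Tsp29Fa and Tsp29Fb, a pair of neighbors on chromosome 2L, were strongly occupied in both populations and higher in ECs. Tsp29Fb (8937390 to 8939743) had 1.79 in ISC/EBs but 2.91 in ECs, where 99.7% of all genes were lower. It was the single member at least 1 higher in ECs (-1.12), and the next, Tsp42Eh, was at -0.52. The whole length of Tsp29Fb was at 1 or above in ECs and 67.8% in ISC/EBs. The difference was not even along the gene. Below the midpoint the means were 2.40 in ISC/EBs and 2.82 in ECs, and above it 1.19 and 3.004, so the populations were close at the end next to Tsp29Fa and far apart at the other. That other end adjoins Argl, which had 0.63 in ISC/EBs and 3.32 in ECs. Only the last fragment of Tsp29Fb (0.67 and 3.42) is shared with Argl, and without it the difference was -1.05. Whether EC methylation over Argl reaches into Tsp29Fb was not tested.

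Tsp29Fa (8933962 to 8936096) had 1.83 in ISC/EBs and 2.14 in ECs, a difference of -0.31. Its profile had maxima of 2.90 and 3.63 in the same fragment and a dip further on, where fragments of 11 to 90 bp had 0.34 to 0.41 in ISC/EBs and 0.57 to 0.72 in ECs. It shares 9 of its 11 fragments with an antisense RNA, asRNA:CR46071, and methylation at GATC sites carries no strand.

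The 3 TspanC8 genes, Tsp3A, Tsp26A and Tsp86D, were all higher in ECs, as were 32.8% of all genes, but none by 1. Tsp3A (chromosome X, 2617758 to 2619738) had 1.63 in ISC/EBs and 1.92 in ECs. Tsp86D (3R, 10868708 to 10870555) had 0.79 and 1.11, and Tsp26A (2L, 6000228 to 6003738) 0.30 and 0.71. Their median difference was -0.31, against 0.15 for all genes, and the sign of each was the same under every setting tried. The size was not, since after quantile normalization the differences were -0.91 at Tsp3A, -0.81 at Tsp86D and -0.72 at Tsp26A, and as a median over fragments that of Tsp3A was -0.93. Kuzbanian's own gene kuz went the other way, with 0.55 in ISC/EBs and -0.07 in ECs. Each of these values is a mean over the gene, and no length effect was removed.

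Within Tsp26A the populations were reversed between the ends. The first fragment, at the lower end, had 3.13 in ISC/EBs against 1.89 in ECs, and the second 2.59 and 1.35. Beyond the middle of the gene the ISC/EB values were near 0, with a mean of -0.0012 above the midpoint, while the EC mean there was 1.08. The last 3 fragments are shared with Gal, which had -0.14 in ISC/EBs and 1.30 in ECs. Over the fragments that touch no other gene, the difference of Tsp26A was -0.12 in place of -0.41. In Tsp3A the EC excess lay within the gene. A fragment of 349 bp had 1.92 in ISC/EBs and 2.63 in ECs, whereas the last fragment, which is shared with Seipin, was higher in ISC/EBs, at 2.85 and 2.50.

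**Figure D4:**
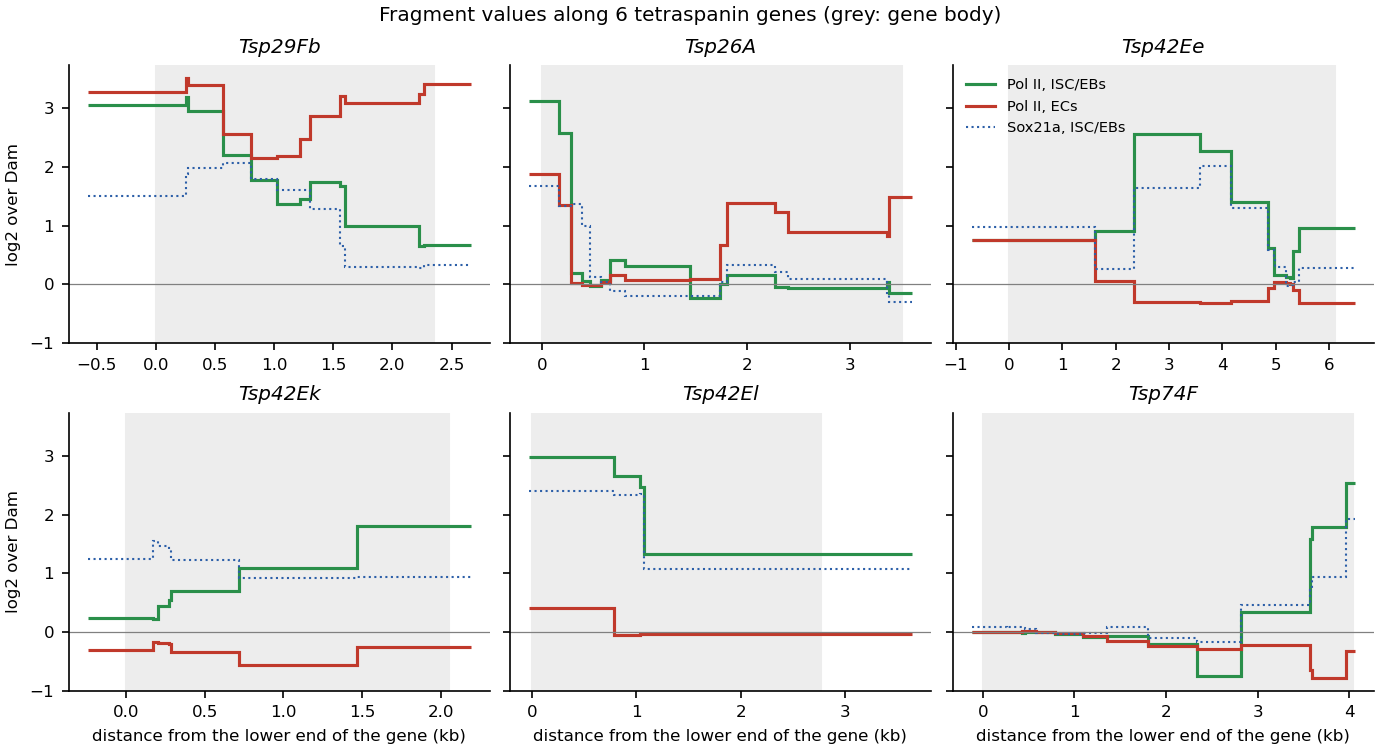
Value of each GATC fragment (vertical axis, log2 over Dam) along 6 tetraspanin genes, in distance from the end of the gene with lower coordinates (kb, horizontal axis), for Pol II in ISC/EBs (green), Pol II in ECs (red) and Sox21a in ISC/EBs (blue, dotted). The gene body is grey. The EC line is high to the far end of Tsp29Fb and in the far part of Tsp26A, and is near or below 0 over most of Tsp42Ee, Tsp42Ek and Tsp42El, and the ISC/EB line is at 2.53 in the last fragment of Tsp74F.

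The other 11 genes, scattered over 5 chromosome arms, had no mean of 1 or above in any track. Their ISC/EB values ran from -0.15 to 0.29 and their EC values from -0.77 to 0.13. Of the 11, 8 were higher in ISC/EBs, against 65.3% of all genes. With the median over all genes subtracted from each track, Tsp39D, Tsp47F, Tsp66E and Tsp96F among these were higher in ECs instead. Tsp42A, Tsp47F, Tsp66A, Tsp66E and Tsp68C were below 0 in both populations. Tsp66A has all 8 of its fragments in common with CG42660 and CG42661, so its value is theirs too. Tsp33B had the lowest EC value of the family, -0.77, and -0.02 in ISC/EBs.

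A low mean did not always stand for a gene low throughout. Of these 11 genes, 5 had at least 1 fragment of 1 or more in ISC/EBs, 2 in ECs and 3 for Sox21a. Over all 33 genes, 19 had such a fragment in ISC/EBs, against 52.6% of all genes, 14 in ECs, against 41.6%, and 17 for Sox21a, against 39.8%. In Tsp5D the fragments over most of the gene were near 0 and the last, next to its higher-coordinate end, had 2.93 in ISC/EBs and 0.48 in ECs. In Tsp74F the last fragment had 2.53 in ISC/EBs against -0.33 in ECs, and in Tsp96F the last, which is shared with SppL, had 2.09 and 0.03. Tsp96F also had 1.06 in ISC/EBs against 0.67 in ECs in a fragment of 406 bp within the gene, and 0.90 and 1.14 in the fragment before it. Tsp39D had its high fragments at the lower-coordinate end and in both populations, with a highest value of 3.18 in ISC/EBs and 1.97 in ECs. The gene table used here gives no strand, so these ends were not assigned to a start or a stop of transcription.

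Sox21a was measured in ISC/EBs only. Sox21a occupancy of at least 1 was found at 8 of the 33 genes, against 14.1% of all genes. In descending order these were Tsp42Er (2.13), Tsp42El (1.59), Tsp29Fa (1.56), Tsp42Ed (1.32), Tsp29Fb (1.24), Tsp42Ef (1.14), Tsp42Ek (1.05) and Tsp42Ee (1.01), and the next was Tsp42Eg at 0.47. All 8 had a Pol II occupancy of at least 1 in ISC/EBs, as did 93.1% of the 2514 genes with such Sox21a occupancy among all genes. The median Sox21a occupancy of the tetraspanin genes was 0.24, and that of all genes was 0.10. The order of the genes by Sox21a was close to that by Pol II in ISC/EBs (Pearson's r = 0.837 and Spearman's rho = 0.818 over 33 genes, 0.817 and 0.780 over all genes). It was less close to that by Pol II in ECs (0.553 and 0.416 over 33 genes, 0.594 and 0.588 over all genes). These are descriptions across genes that share fragments. The Sox21a and ISC/EB tracks also share a driver, and each was divided by Dam alone.

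A Sox21a peak, as called by the authors at an FDR below 0.01, overlapped 8 tetraspanin genes, against 17.4% of all genes. The peaks on Tsp29Fa, Tsp29Fb, Tsp26A, Tsp42Ea, Tsp42El and Tsp74F had scores of 2.45, 2.01, 1.70, 2.48, 2.51 and 2.26 (log2), where the median of all 2769 peaks was 2.21. Tsp42Eq and Tsp42Er shared 1 peak (2R:7063244-7065644) with a score of 2.82, higher than 96.0% of all peaks. It covered 72.7% of Tsp42Er and 22.3% of Tsp42Eq. Inside Tsp42Er the Sox21a value reached 3.05, while Tsp42Eq had a mean of 0.36 and exceeded 1 only in its last fragment, at 1.77.

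Occupancy and peak did not pick the same genes. Tsp42Ed, Tsp42Ef, Tsp42Ek and Tsp42Ee had a mean of at least 1 with no peak on the gene. The peak nearest to Tsp42Ek (2R:7044847-7046846) began 137 bp beyond it and ran into Tsp42El, whereas the nearest peaks of Tsp42Ed, Tsp42Ee and Tsp42Ef were 14927, 17683 and 16765 bp away. Conversely, Tsp26A (Sox21a mean 0.20), Tsp74F (0.20), Tsp42Eq (0.36) and Tsp42Ea (0.39) had a peak over one end and a low mean. At Tsp26A the peak covered 11.3% of the gene and lay over the fragments that were high in ISC/EBs. At Tsp74F it overlapped 84 bp at the end where the Sox21a value was 1.92. Tsp86D was the only gene with Pol II above 0.5 in ISC/EBs and a Sox21a mean below 0 (-0.14), and its nearest peak was 13356 bp away.

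**Figure D5:**
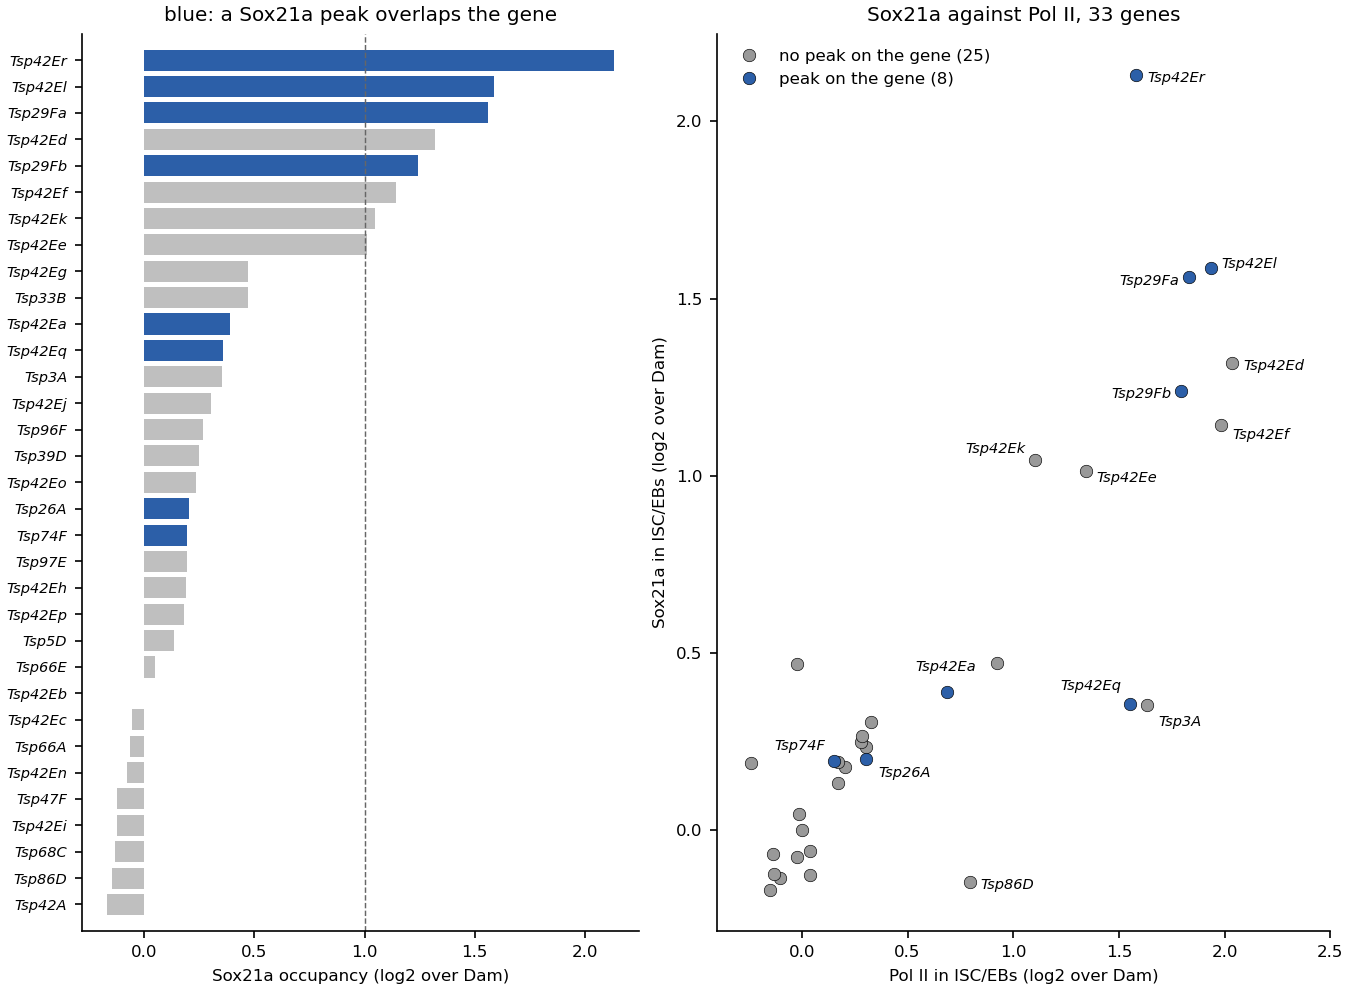
Left, mean Sox21a occupancy of the 33 tetraspanin genes in ISC/EBs (horizontal axis, log2 over Dam), in blue for the 8 genes that a peak overlaps and grey for the other 25. Right, the same Sox21a values (vertical axis) against Pol II in ISC/EBs (horizontal axis, log2 over Dam): the 8 genes with Sox21a of at least 1 lie at a Pol II value of 1.10 or more (93.1% of all genes with such Sox21a occupancy had Pol II of at least 1), and Tsp3A, Tsp42Eq and Tsp86D have Pol II with less Sox21a.

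By Pol II pattern, a peak overlapped 4 of the 7 genes at 1 or above in both populations, 1 of the 3 in ISC/EBs only, 0 of the 2 in ECs only and 3 of the 21 in neither. In all genes the shares were 46.2%, 37.7%, 11.7% and 6.89%. The difference between the populations was less closely related to Sox21a in the tetraspanin genes than their ISC/EB level was (r = 0.213, over all genes 0.495). Tsp29Fb, for example, had 1.24 for Sox21a and a difference of -1.12.

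Genes that work with tetraspanins gave a background for these values. Of 9 genes of Notch receptor cleavage (N, Dl, Ser, kuz, kul and the gamma-secretase genes Psn, nct, aph-1 and pen-2), 7 were higher in ISC/EBs, against 65.3% of all genes. By at least 1, 3 were higher there, against 9.89% of all genes, and the median difference was 0.99. Dl is among these 3 and was also used above as an ISC/EB marker, so its direction here is not a separate observation. The Notch receptor gene N had 1.24 in ISC/EBs against -0.21 in ECs, and pen-2 2.20 and 0.43, although pen-2 has only 2 fragments. The 3 TspanC8 genes had the opposite sign to most of this list, with differences of -0.29 to -0.41. Members and list were chosen with earlier results of these data known, so the contrast is a description only. Of 8 genes of integrins and talin, which link the cell to its matrix, all 8 were higher in ISC/EBs (65.3% of all genes). By at least 1, 4 were (Itgbn, mew, scb and rhea, against 9.89% of all genes), with a median of 0.93. Of the 4 genes of the smooth septate junction (mesh, Ssk, hoka and Tsp2A), all 4 were higher in ECs, 2 by at least 1, with a median of -0.90. Among all genes 32.8% were higher in ECs, and 2.66% by at least 1. Tsp2A had 1.17 in ISC/EBs against 2.29 in ECs, and its difference of -1.12 was the same to 2 decimals as that of Tsp29Fb. No gene of the septate junction list had a Sox21a peak, against 17.4% of all genes. Genes of the Notch and integrin lists had medians of 35 and 43 fragments, against 10 for the tetraspanin genes. The list values are given without other scaling of the tracks.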

How the data were processed

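The labels name adult midgut and the protein and driver of each of the 14 samples. The authors deposited 3 tracks of log2 ratios of Dam fusion to Dam, each averaged over the samples of an experiment, and Sox21a peaks with a log2 score at an FDR below 0.01. The read aligner, the scaling of libraries and the caller of the peaks were not given in the sources used here, so a difference in depth or scale between experiments cannot be told apart from a difference in occupancy. Sequencing depth is unknown.

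Genes were placed by the Release 6 table, which puts 17807 genes on the arms of the tracks, 17802 of them with at least 1 fragment; no gene lay past the last fragment of its arm. The table has no strand or exons, and no genome sequence was used. Gene values were length-weighted means over fragments, and a peak counted when it overlapped a gene by at least 1 bp. Gene means were tested on simulated data, with shuffled ISC/EB values. They were equal to a direct computation in 200 of 200 genes, and 200 known shifts were recovered, both to within 1e-09.

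Genes described in full were those with the 5 highest and 5 lowest differences, the 5 highest values in each track, genes under peaks, the TspanC8 genes and genes next to a mark of size. Others came from lists of Notch cleavage, integrin and septate junction genes, and from genes that share fragments. The members and lists were chosen with earlier results of these data known. Other settings changed the weights, fragments, scaling, marks of size and peak overlap. Computations ran in Python 3.11.15 with pandas 2.3.3, numpy 2.4.6 and scipy 1.17.1, and plots were drawn with matplotlib 3.10.9.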

Additional observations from a re-analysis of the deposited data

How the results depend on the processing

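As a median over fragments, 6 genes reached 1 in ISC/EBs (23.1% of all genes) and 1 gene was at least 1 higher there (9.07%). At a mark of 0.5, 5 genes were higher in ISC/EBs (29.2%) and 2 in ECs (5.38%). At 1.5, these were 1 (3.18%) and 0 (1.29%), and 5 genes reached it in ECs (9.89%) and 3 for Sox21a (5.62%). Peaks covered at least 50% of 3 genes (5.84%) and lay within 5 kb of 15 (35.5%). With the median over all genes subtracted, the median difference was -0.24, where that of all genes was -0.15. The cause of these shifts was not tested. The sign of the difference changed at 9 genes with that subtraction, 5 at a common SD, 5 as a median over fragments and 4 after quantile normalization, and no called difference was reversed. The share of all genes with a changed sign was not computed. A setting without fragments at 0 in all 3 tracks was chosen after seeing the data and left 32 genes. Under it 11 genes reached 1 in ISC/EBs (30.1% of all genes) and 10 in ECs (19.3%). For Sox21a 9 did, with no share of all genes computed. No paired analysis was possible because the averaged tracks carry no replicate values, and for the same reason no replicate could be left out in turn.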
